A study of Mus with 2 samples.

Results

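Mouse bone marrow was profiled for 32 genes of glucose and lactate handling, taken as a set by symbol: the glucose and lactate transporters, the enzymes of glycolysis, the enzymes that make or remove fructose 2,6-bisphosphate, lactate dehydrogenase and both arms of the pentose phosphate pathway. All 32 were found among the 32285 features of the count matrices, as 33 entries, because Aldoa is listed under a pair of Ensembl identifiers; its entry with far more UMIs was used. The rule itself uses no measured value, but the members and lists were chosen with earlier results of these data known. The study sequenced single cells from the bone marrow of mice labelled ground and of mice labelled running, with the source given as murine hindlimb. Each group is 1 library made with a Chromium Single Cell 3′ v3 kit. The labels name no strain, age, sex or genotype, and do not say how many mice were pooled, how or for how long the mice ran, or what the ground condition was beyond its contrast with running. With 1 library a group, group and library cannot be told apart, and no test between them was possible.

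Glycolysis takes up glucose through facilitative transporters, traps it as glucose 6-phosphate, splits the sugar into triose phosphates and oxidises these to pyruvate, which lactate dehydrogenase can reduce to lactate for export. The pentose phosphate pathway leaves at glucose 6-phosphate: its oxidative arm makes NADPH, and its non-oxidative arm exchanges sugar phosphates with glycolysis. Neutrophils hold few mitochondria, draw most of their ATP from glycolysis and use NADPH in the oxidative burst, and red cells lose their mitochondria as they mature.

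Cells passing the filters numbered 8666 in ground and 9080 in running, with medians of 5938 and 5145.5 UMIs (molecules counted once by their tags) per cell. Clusters were named by marker genes and summed to 15 classes, of which 9 were compared. A compared class needed at least 200 cells in each library. For macrophage-like cells alone this minimum was 50. A level is CPM (counts scaled to a common total): the gene's share of all UMIs of the class. A ratio is the log2 of running CPM over ground CPM, given only where a member had at least 50 UMIs over both libraries. Intervals cover 95% and counting error only, from exact Poisson or conditional binomial limits. A member is called lower or higher where the ratio passes 1.5-fold and its interval excludes no difference. Counts of called members within a class, cluster or alternative are followed once, in parentheses, by the percentage of all genes tested there that was called in that direction. UMIs from the 3′ end count a molecule once whatever its length, so the levels of different genes are given without division by length. Of the mature neutrophil-like class, cluster 5 held 40.2% in ground and 1.59% in running, and cluster 19 held 4.06% and 42.7%. In all, 24 barcodes occurred in both libraries. Mature neutrophil-like cells were 29.5% of ground cells and 33.3% of running cells.

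Transcripts of the set were spread unevenly over the marrow classes, and the spread was much the same in both libraries. Over the 13 classes other than plasma cell-like and mesenchymal stromal-like cells, which held the fewest cells and were not ranked, the class with the highest CPM was the same in ground and running for 25 of 32 members. Mature neutrophil-like cells were the top class for 9 members in ground and 8 in running. Among them, the neuronal-type glucose transporter gene Slc2a3 stood at 523 CPM in ground against 509 CPM in running. The monocarboxylate transporter gene Slc16a3, whose product exports lactate, stood at 436 CPM in ground against 269 CPM in running there. The transaldolase gene Taldo1 stood at 1416 CPM in ground against 1789 CPM in running. The pyruvate kinase gene Pkm stood at 883 CPM in ground against 665 CPM in running. These 4 genes therefore led in neutrophils in both libraries. Granulocyte-monocyte progenitor-like cells were the top class for 5 members in each library, among them Gapdh, the glyceraldehyde 3-phosphate dehydrogenase gene, at 1987 CPM in ground against 1761 CPM in running. Immature neutrophil-like cells led for the transketolase gene Tkt, at 1049 CPM in ground against 1031 CPM in running, and for G6pdx, the first enzyme of the oxidative arm, at 276 CPM in ground against 225 CPM in running. Erythroid-like cells led for Hk1, Slc16a1, Pfkm and Rpia. Of these, Slc16a1, a monocarboxylate transporter gene, stood at 137 CPM in ground against 114 CPM in running. Pgls, whose product opens the ring of 6-phosphogluconolactone, was highest in B-cell precursor-like cells, at 782 CPM in ground against 821 CPM in running. Bpgm, which makes the haemoglobin ligand 2,3-bisphosphoglycerate, stood at 39.1 CPM in ground against 34.3 CPM in running in erythroid-like cells, and its higher ground level in macrophage-like cells rests on 9 UMIs.

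**Figure D1:**
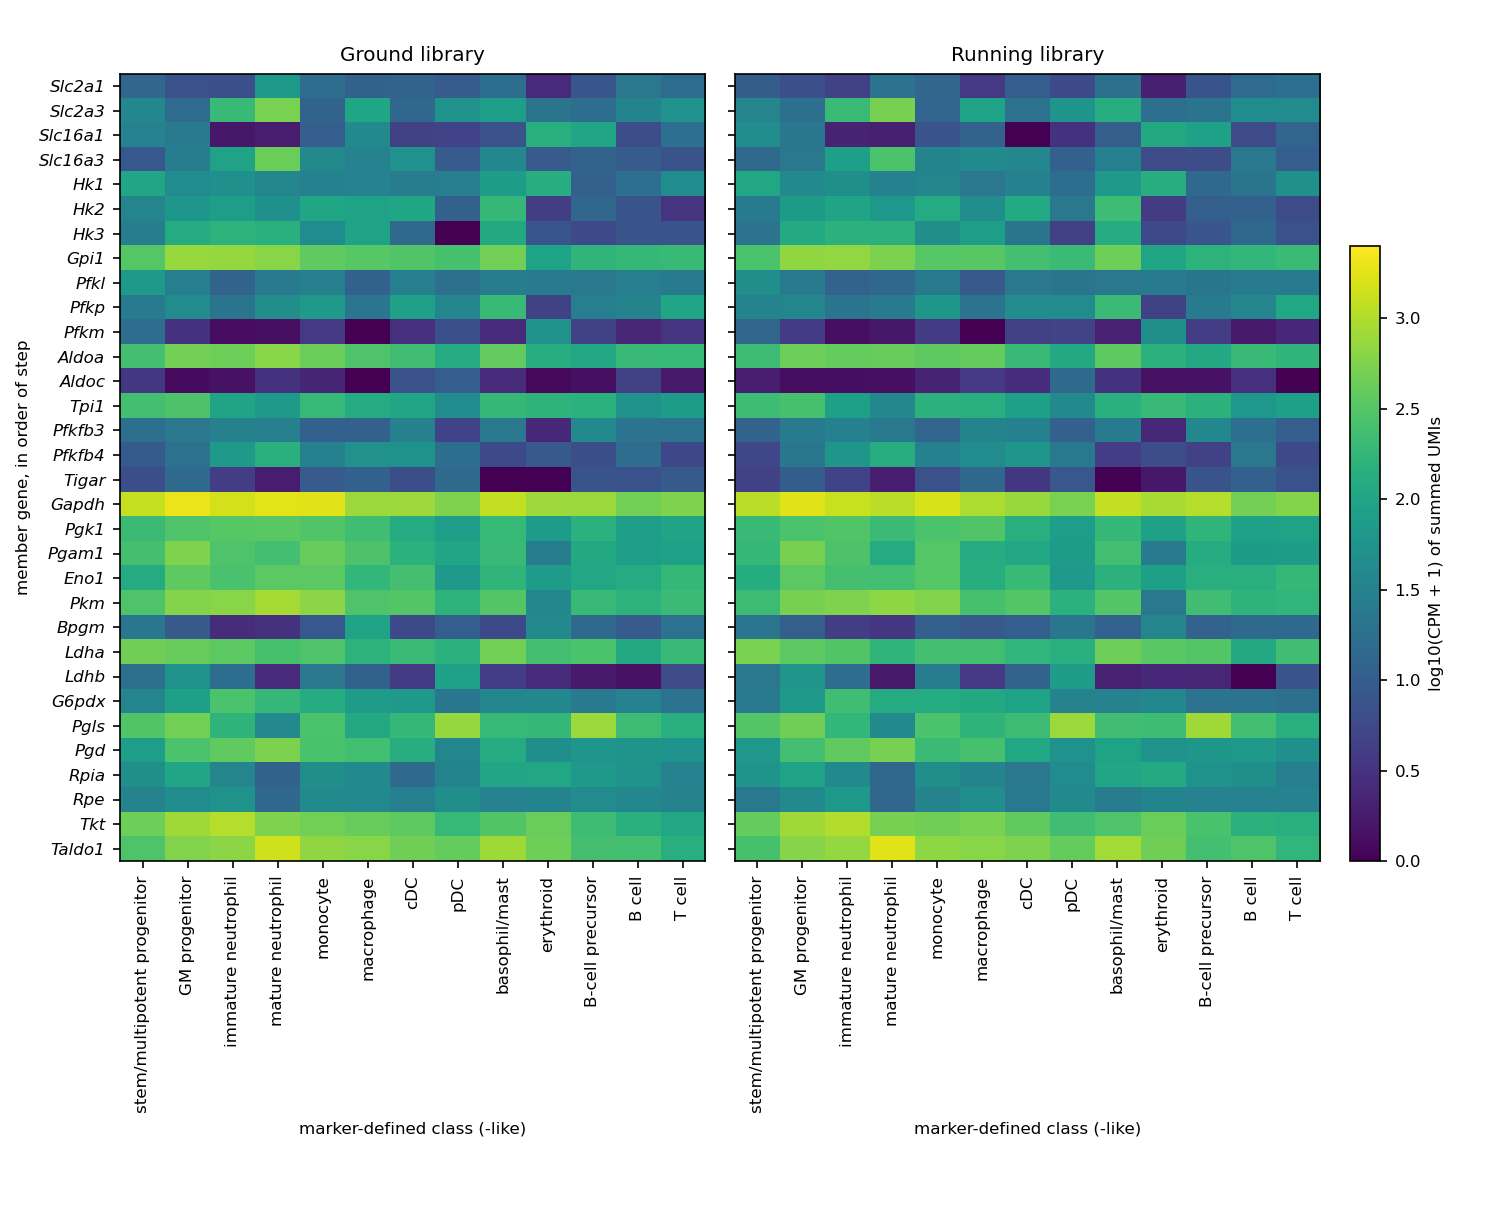
Level of each member in each marker-defined class, as the log10 of CPM + 1 of summed UMIs (colour), with genes in the order of the pathway steps on the vertical axis and classes on the horizontal axis, for the ground library (left) and the running library (right). For 25 of 32 members the highest class was the same in both panels.

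Along the neutrophil line from progenitor-like through immature to mature neutrophil-like cells, the members followed several orders. In ground 9 members were higher at each step, 8 lower at each step, 9 lowest in immature and 6 highest in immature cells. In running these numbers were 8, 11, 5 and 8. For 24 of 32 members the order of the 3 levels was the same in both libraries. These orders rank the levels alone, without intervals or the UMI minimum, so some rest on small differences or few UMIs. In ground, Pfkfb3 counted as higher at each step with 28.8 CPM in immature and 28.9 CPM in mature cells. Gpi1 counted there as lower at each step with 739 CPM in progenitor-like and 734 CPM in immature cells. In running, Aldoc counted as higher at each step on 6 UMIs in progenitor-like and mature cells together. Slc2a3 was higher at each step, in ground at 14.6, 195 and 523 CPM and in running at 16.2, 207 and 509 CPM. Slc16a3 followed the same order, in ground at 26.7, 90.1 and 436 CPM and in running at 21.9, 81.3 and 269 CPM. So did Pfkfb4, a bifunctional enzyme that makes and removes fructose 2,6-bisphosphate, at 17.8, 66.2 and 145 CPM in ground. Pkm, Taldo1 and Pgd, the 6-phosphogluconate dehydrogenase gene, also stood higher at each step in both libraries. Pgls went the opposite way, in ground at 471, 162 and 38.97 CPM and in running at 454, 177 and 40.4 CPM. The ribose 5-phosphate isomerase gene Rpia stood in ground at 99.7, 34.6 and 10.5 CPM and in running at 92.4, 41.2 and 13.03 CPM. Tpi1, Pgam1, Ldha, Ldhb and Tigar were also lower at each step in both libraries. The pentose phosphate genes were thus divided: in both libraries Pgd and Taldo1 were highest and Pgls and Rpia lowest in mature cells, while G6pdx, Rpe and Tkt, like Hk1 and Hk2, were highest in immature cells. Slc2a1, the other glucose transporter gene, was lowest of these 3 stages in immature cells. It stood in ground at 6.22, 5.83 and 67.8 CPM and in running at 5.68, 3.72 and 19.00 CPM. Over the 13 ranked classes Slc2a1 was lowest in erythroid-like cells, at 1.63 CPM in ground against 0.981 CPM in running. Gapdh is among the 8 members whose order differed: it stood in ground at 1987, 1528 and 1825 CPM and in running at 1761, 1300.2 and 1115 CPM.

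The classes also held transcripts of different isozymes, given here as a share of the family's UMIs. Erythroid-like cells held Hk1, the broadly expressed hexokinase, at 92.7% (91.3% to 93.96%) of hexokinase UMIs in ground and 94.6% (93.5% to 95.7%) in running. Mature neutrophil-like cells held Hk3 at 62.6% and 61.5%, and monocyte-like cells Hk2, the insulin-regulated isozyme of muscle, at 56.7% and 60.2%. Conventional dendritic cell-like cells held Hk2 at a larger share still, 71.1% and 70.4%. That class had 3 conventional dendritic and 2 nonclassical monocyte markers among its 10 leading genes. In cells with at least 1000 UMIs, a cluster with similar leading genes was named nonclassical monocyte, so the class may hold both types. Of the phosphofructokinase genes, the muscle-type gene Pfkm held 65.4% and 62.8% in erythroid-like cells against 0.506% and 1.68% in mature neutrophil-like cells. The platelet-type gene Pfkp held 78.9% and 80.6% in T cell-like cells. Of the lactate transporters, Slc16a1 held 94.2% and 95.8% in erythroid-like cells and 89.7% and 94.2% in B-cell precursor-like cells, and Slc16a3 99.8% and 99.6% in mature neutrophil-like cells. Ldhb, the heart-type subunit of lactate dehydrogenase, held its largest share of Ldha and Ldhb UMIs in plasmacytoid dendritic cell-like cells, 35.8% in ground and 35.02% in running. Of Pfkfb3 and Pfkfb4, Pfkfb4 held 83.3% and 85.2% in mature neutrophil-like cells, and Pfkfb3 87.8% and 91.3% in B-cell precursor-like cells. Aldoa held most aldolase UMIs in every class, with Aldoc at 0.342% and 0.0885% in mature neutrophil-like cells.

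The glucose transporters of mature neutrophil-like cells had unlike shares in the 2 libraries, with intervals that did not overlap. Slc2a1 held 11.5% (10.7% to 12.3%) of Slc2a1 and Slc2a3 UMIs in ground and 3.60% (3.14% to 4.11%) in running. In monocyte-like cells, where the intervals overlapped, the same share was 57.9% (53.3% to 62.3%) and 51.2% (46.00% to 56.4%).

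**Figure D2:**
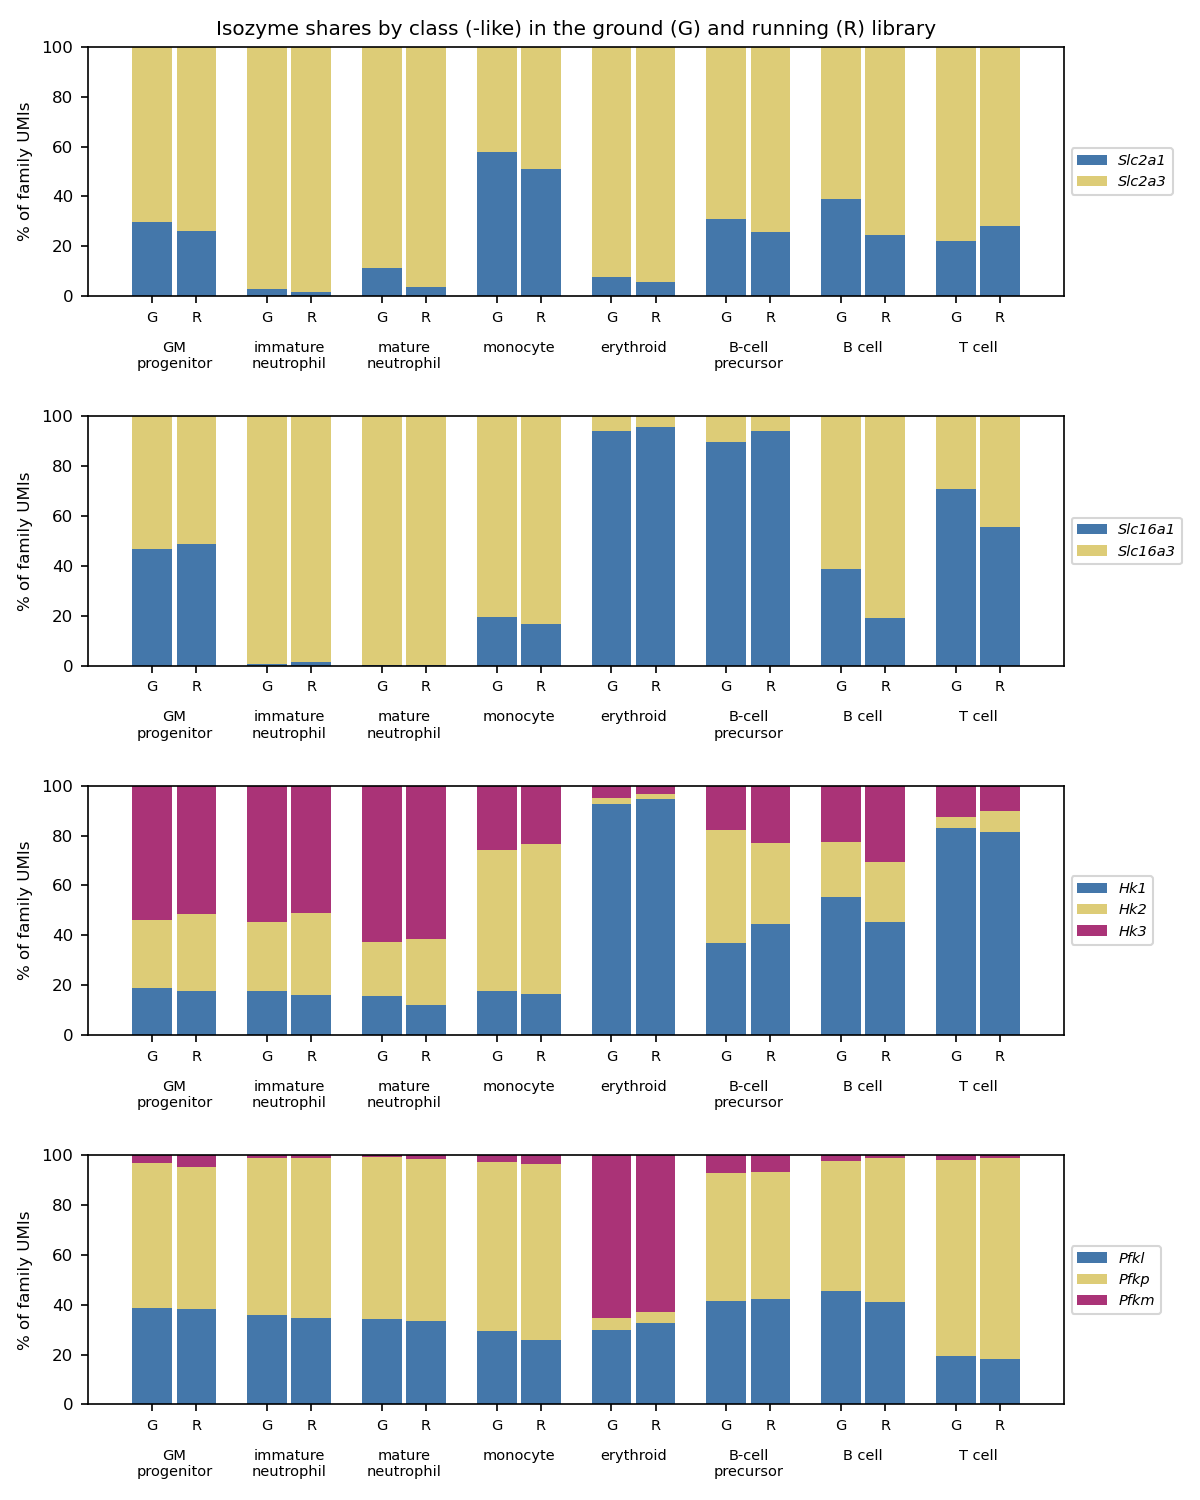
Share of family UMIs (vertical axis, percent) held by each isozyme of the glucose transporter, lactate transporter, hexokinase and phosphofructokinase families, in 8 classes, with a bar for the ground library (G) and the running library (R). Erythroid-like bars are mostly Hk1, Pfkm and Slc16a1, and mature neutrophil-like bars mostly Hk3, Slc2a3 and Slc16a3.

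Over all cells of a library, 1 member was lower in running (1.6% of all genes) and none was higher (6.02%). That member was Slc2a1, at 16.7 CPM in ground against 8.57 CPM in running (1373 and 672 UMIs), a ratio of −0.96 (interval −1.10 to −0.83). The next 4 ratios were −0.52 for Slc16a3, −0.41 for the phosphoglycerate mutase gene Pgam1, −0.40 for G6pdx and −0.33 for the aldolase gene Aldoa. At the other end stood Bpgm at 0.19, Hk2 at 0.17, Pgls at 0.14, Taldo1 at 0.12 and Rpia at 0.10. The median ratio of the 32 members was −0.16, beside 0.08 over all genes, and 24 members lay below 0, as did 30.2% of all genes. When both libraries were weighted to the class make-up of ground, Slc2a1 stood at −1.04 and 2 members were lower (1.74%).

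Of the 9 classes compared, mature neutrophil-like cells had the most called members: 10 were lower in running (4.12% of all genes) and none higher (7.91%). The 27 members measured had a median ratio of −0.36, and 21 lay below 0, as did 36.2% of all genes. All genes of the class had a median of 0.10, and 12 members were lower when the fold was taken from that median (5.61%). Clusters 2, 4, 5 and 19 made up the class. Cluster 5 held 1029 ground and 48 running cells and cluster 19 held 104 and 1292, so these 2 were each mostly of 1 library. Median depth in the class was 4064 UMIs per cell in ground and 3451 in running. The 11 immature neutrophil markers, all detected, summed to 13733 CPM in ground against 9703 CPM in running in these cells, and their part in the ratios was not tested.

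The glucose transporters differed from each other. Slc2a1 (RefSeq GRCm38.p6 chromosome 4, positions 119108745 to 119137330) stood at 67.8 CPM in ground against 19.00 CPM in running (753 and 210 UMIs), the lowest ratio of the set at −1.83 (interval −2.06 to −1.61). Slc2a3, with most of the transporter UMIs, stood at 523 CPM in ground against 509 CPM in running and a ratio of −0.04 (interval −0.09 to 0.01). The ratio was thus far lower for the minor transporter gene than for the pair summed, which stood at −0.16 (interval −0.21 to −0.11). Slc16a3 (chromosome 11, positions 120948484 to 120959000) was lower, at 436 CPM in ground against 269 CPM in running and a ratio of −0.70 (interval −0.76 to −0.63). Slc16a1 had 10 and 11 UMIs, below the minimum.

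In upper glycolysis, which runs from hexokinase to triose phosphate isomerase, 4 genes were lower. The liver-type phosphofructokinase gene Pfkl stood at 24.4 CPM in ground against 12.7 CPM in running, a ratio of −0.95 (interval −1.25 to −0.65). Pfkp stood at 46.3 CPM in ground against 24.3 CPM in running, a ratio of −0.93 (interval −1.15 to −0.71). These are the enzymes of the committed step, and the third gene of the family, Pfkm, had 4 and 7 UMIs. Tpi1, triose phosphate isomerase (chromosome 6, positions 124810586 to 124814158), stood at 66.6 CPM in ground against 36.6 CPM in running, a ratio of −0.86 (interval −1.04 to −0.69). Aldoa stood at 629.9 CPM in ground against 409 CPM in running, a ratio of −0.62 (interval −0.68 to −0.57). The hexokinase genes, which open the pathway, were not called: Hk1 stood at −0.26, Hk2 at 0.34 and Hk3 at 0.05. Gpi1, which turns glucose 6-phosphate into fructose 6-phosphate and had most UMIs of these genes over both libraries together, stood at 624 CPM in ground against 540.5 CPM in running, a ratio of −0.21 (interval −0.26 to −0.16). Of the fructose 2,6-bisphosphate genes, Pfkfb3 stood at −0.36 and Pfkfb4 at −0.16, and neither was called. Aldoc had 24 and 4 UMIs and Tigar 10 and 10, below the minimum.

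In lower glycolysis, from triose phosphate to pyruvate, 3 of 5 genes were lower and the others lay on the same side of 0. Gapdh (chromosome 6, positions 125161852 to 125166467) stood at 1825 CPM in ground against 1115 CPM in running, a ratio of −0.71 (interval −0.74 to −0.68). Pgk1, the phosphoglycerate kinase that yields ATP, stood at 343 CPM in ground against 208 CPM in running, a ratio of −0.72 (interval −0.80 to −0.65). Pgam1 (chromosome 19, positions 41911871 to 41918665) stood at 244 CPM in ground against 122 CPM in running, a ratio of −0.99 (interval −1.09 to −0.90). Just inside the fold lay the enolase gene Eno1 at −0.55 (interval −0.62 to −0.48) and, further in, Pkm at −0.41 (interval −0.45 to −0.37). Summed over its genes, lower glycolysis stood at 3644 CPM in ground against 2348 CPM in running, a ratio of −0.63, and upper glycolysis at −0.36. Ldha, the lactate dehydrogenase subunit that favours lactate, was lower too, at 258 CPM in ground against 166 CPM in running and a ratio of −0.64 (interval −0.72 to −0.55), while Ldhb had 17 and 8 UMIs. Bpgm stood at 0.18 on 24 and 27 UMIs.

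The pentose phosphate genes showed no call. In the oxidative arm, G6pdx stood at 183 CPM in ground against 124 CPM in running, a ratio of −0.56 (interval −0.66 to −0.46) that ends just short of the fold, while Pgd stood at 534 CPM in ground against 505 CPM in running and −0.08 (interval −0.13 to −0.03) and Pgls at 0.05. In the non-oxidative arm Taldo1 (chromosome 7, positions 141392160 to 141402976) stood at 1416 CPM in ground against 1789 CPM in running, a ratio of 0.34 (interval 0.31 to 0.37), shared as highest value with Hk2 at 0.34. Rpia stood at 0.31, Tkt at −0.15 and the ribulose phosphate epimerase gene Rpe at −0.10. The summed ratio was −0.17 (interval −0.22 to −0.13) for the oxidative arm and 0.22 (interval 0.19 to 0.24) for the non-oxidative arm. Taldo1 held 74.4% of the non-oxidative UMIs over both libraries. That sum therefore mostly follows Taldo1 and does not describe the arm as a whole, since Tkt and Rpe lay below 0. The ratios of Hk3 and Pgls lie within the 0.10 shift of the all-gene median, so relative to that median they lie below 0.

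**Figure D3:**
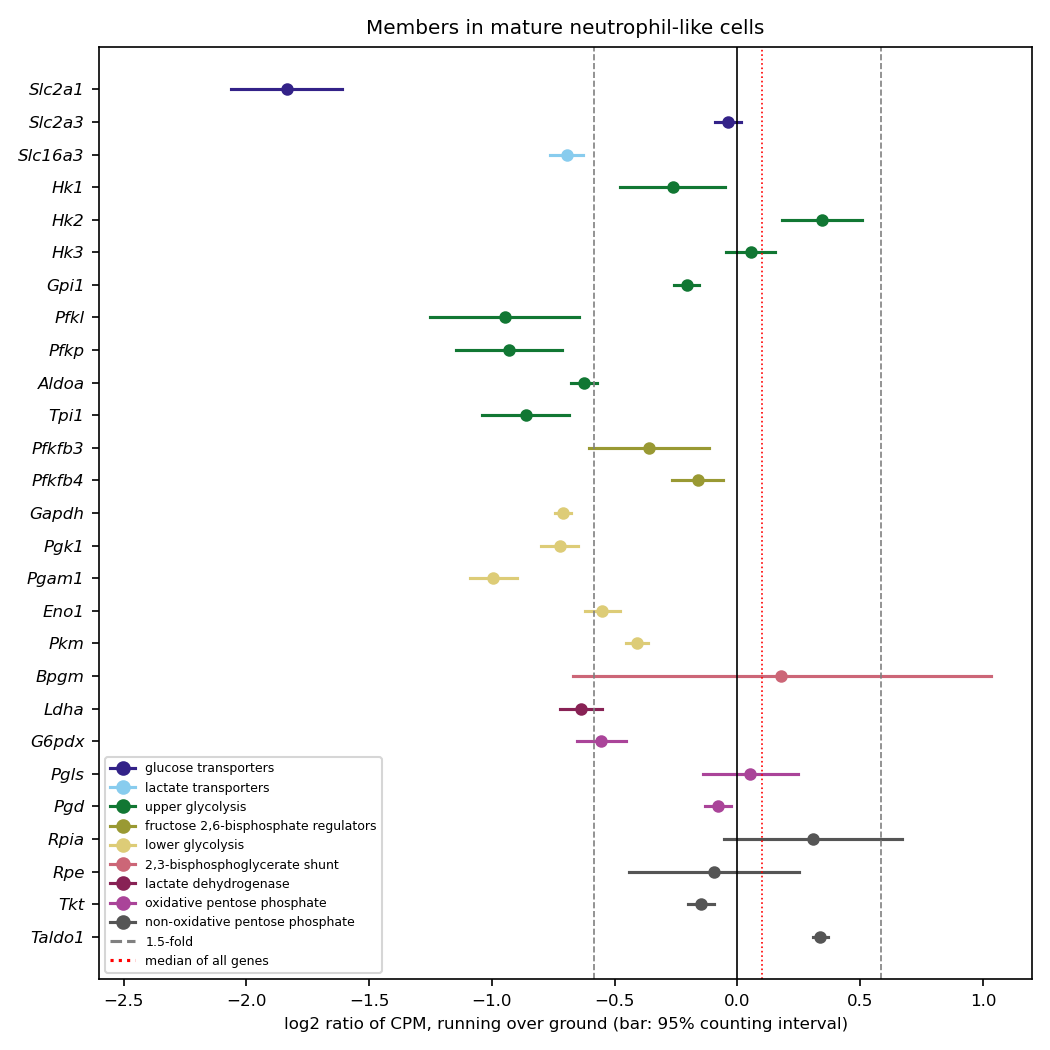
Log2 ratio of CPM, running over ground (horizontal axis), for the 27 members measured in mature neutrophil-like cells, with 95% counting intervals as bars and colours for the pathway step; dashed lines mark 1.5-fold and the dotted line the median of all genes. Slc2a1 lies farthest left at −1.83, and the 10 members called lower sit at or left of −0.62.

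Set against each other, the pathways gave 52.2 pentose phosphate UMIs for every 100 glycolysis UMIs in ground and 82.5 in running, a ratio of 1.58 (interval 1.55 to 1.61). Other classes lay closer to 1: 1.13 in T cell-like, 1.13 in immature neutrophil-like, 1.09 in granulocyte-monocyte progenitor-like and 1.07 in monocyte-like cells. The ratio was 0.964 in erythroid-like and 0.869 in B-cell precursor-like cells. Within erythroid-like clusters 10, 11 and 12, however, it was 1.05, 1.02 and 1.17, all on the other side of 1, and cluster 10 held 65.8% of the class in ground and 55.00% in running. Within B-cell precursor-like clusters 13 and 16 it was 0.914 and 1.04, on either side of 1. The intervals of clusters 11, 12 and 16 included 1. Intervals of macrophage-like (0.881 to 1.39) and B cell-like cells (0.971 to 1.14) included 1. Most pentose phosphate UMIs of mature neutrophil-like cells came from Taldo1, and without it the ratio was 1.31. Within clusters 2, 4, 5 and 19 it was 1.38, 2.11, 1.44 and 1.67.

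**Figure D4:**
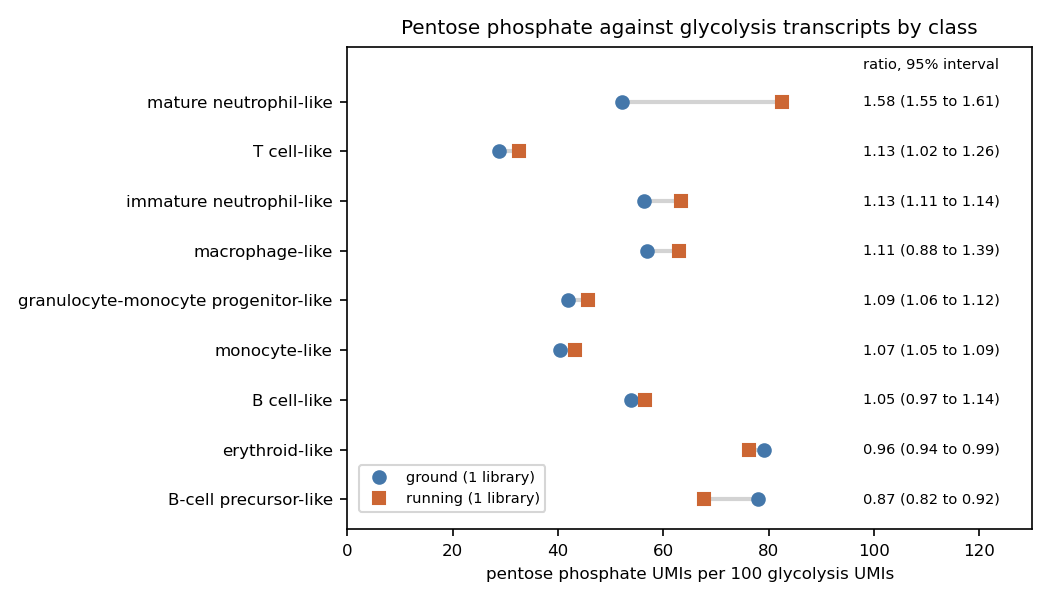
Pentose phosphate UMIs per 100 glycolysis UMIs (horizontal axis) in the 9 compared classes, with circles for the ground library and squares for the running library, and the ratio with its 95% counting interval at the right. Mature neutrophil-like cells stood at 52.2 in ground and 82.5 in running.

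Within single clusters of mature neutrophil-like cells most measured members lay below 0: 23 of 26 in cluster 2, 19 of 25 in cluster 4, 21 of 24 in cluster 5 and 22 of 25 in cluster 19. The medians of all genes in clusters 2, 4, 5 and 19 were 0.06, −0.0006, 0.006 and 0.17. Cluster 2, with 831 and 1097 cells, had 4 lower (3.46% of all genes): Slc2a1 at −1.73, Pgam1 at −0.60, Pfkl at −0.60 and Slc16a3 at −0.59. It had 1 higher (6.74%), Rpia at 0.65, with 39 and 62 UMIs. Cluster 4, with 596 and 591 cells, had 11 lower (5.85%) and none higher (5.62%); Pfkl stood at −1.65, Pgam1 at −1.35 and Tpi1 at −0.995. Clusters 5 and 19 had 10 lower each (2.63% and 3.19%) and none higher (4.01% and 8.71%). In cluster 5, Pfkfb3 is among the 10, with 114 and 0 UMIs. If running had 3 counts there instead of 0, its ground level would stand 0.56 higher on the log2 scale, which is short of the fold. Slc2a1 stood at −1.73, −1.53, −1.26 and −1.36 in clusters 2, 4, 5 and 19, and was called in all 4. Taldo1 stood at 0.34, 0.56, 0.28 and 0.19. Without clusters 5 and 19, 5 members were lower (4.01%), namely Slc2a1, Pfkl, Pfkp, Gapdh and Pgam1, and none was higher (5.56%). The 5 no longer called were Ldha at −0.56, Pgk1 at −0.54, Slc16a3 at −0.53, Tpi1 at −0.50 and Aldoa at −0.50. The count was 6 with 1 doublet threshold for both libraries (3.45%) and 4 with the latest cluster of the immature class counted as mature (2.97%; 7.23% of all genes higher, no member).

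**Figure D5:**
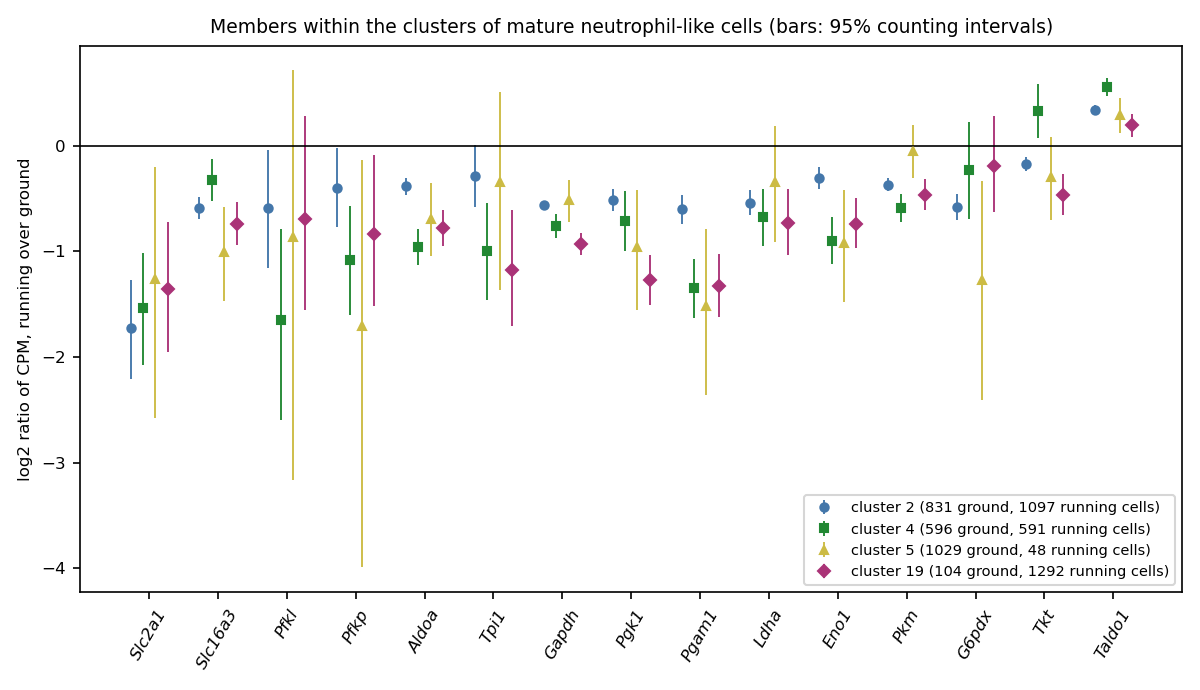
Log2 ratio of CPM, running over ground (vertical axis), of the members called lower in mature neutrophil-like cells and 5 others, in each of the 4 clusters of that class, with 95% counting intervals. Slc2a1 lies below 0 in all 4 clusters (−1.73 to −1.26), and Taldo1 above 0 (0.19 to 0.56).

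Earlier stages showed few calls. In immature neutrophil-like cells Slc2a1 was lower, at 5.83 CPM in ground against 3.72 CPM in running (130 and 66 UMIs; 1.08% of all genes called lower) and a ratio of −0.65 (interval −1.10 to −0.21). Bpgm was higher, at 1.75 CPM in ground against 3.10 CPM in running (4.12% of all genes called higher) and a ratio of 0.83, on 39 and 55 UMIs, fewer than 100 UMIs in all, and it was singled out after its values were seen. With 1 doublet threshold for both libraries neither was called. The median ratio was −0.05, beside 0.09 for all genes. In granulocyte-monocyte progenitor-like cells, 313 and 206 in number, 1 of 30 members was lower (1.3%) and none higher (2.51%): Tigar, a phosphatase that removes fructose 2,6-bisphosphate, at 14.1 CPM in ground against 9.02 CPM in running (111 and 54 UMIs), a ratio of −0.64 (interval −1.14 to −0.16). In cells with at least 1000 UMIs, and at the higher clustering resolution, Tigar was not called. The median of the 30 was −0.11 and that of all genes 0.001.

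In monocyte-like cells no member was lower (2.49% of all genes) or higher (3.18%), and the median was −0.14 beside −0.003 for all genes. Cluster 14, with 634 and 608 cells, had Pgam1 lower at −0.59 (3.56%) and Slc2a3 higher at 1.27 (3.99%), the latter from 5.99 CPM in ground against 14.4 CPM in running (37 and 77 UMIs). S100a8, a neutrophil protein gene, stood in that cluster at 2503 CPM in ground against 4732 CPM in running, and the part of neutrophil RNA in the Slc2a3 ratio was not tested. Cluster 15 had Slc2a1 lower at −0.65 (2.9%). Cluster 17, with 179 and 91 cells and median depths of 892 and 793 UMIs, had Aldoa, Gapdh, Pgam1, Pgd and Tkt lower (11.3%). Its S100a8 stood at 43349.6 CPM in ground against 23628 CPM in running, and the part of neutrophil RNA in those 5 ratios was not tested. Without cluster 17 no member of the class was lower (2.45%) or higher (3.24%).

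In erythroid-like cells, 549 and 480 in number, 3 members were lower (2.94% of all genes) and none higher (4.11%). Pkm stood at 37.3 CPM in ground against 22.2 CPM in running (412 and 272 UMIs), a ratio of −0.75 (interval −0.97 to −0.52). Slc16a3 stood at 8.42 CPM in ground against 4.99 CPM in running, a ratio of −0.76 (interval −1.25 to −0.27), and Hk3 at 7.16 CPM in ground against 4.58 CPM in running, a ratio of −0.64 (interval −1.16 to −0.13). All 3 genes stood higher in neutrophil-like cells than in erythroid-like cells. Pkm stood in mature neutrophil-like cells at 883 CPM in ground against 665 CPM in running. S100a8 in the erythroid-like class was 4745 CPM in ground against 2972 CPM in running. The summed CPM of 11 immature neutrophil markers, all 11 detected, was 4159.7 CPM in ground against 2396 CPM in running, and their part in the 3 ratios was not tested. Haemoglobin genes summed to 77613 CPM in ground against 48403 CPM in running. Ldha stood at 239 CPM in ground against 336 CPM in running (2639 and 4114 UMIs), a ratio of 0.49 (interval 0.42 to 0.56), inside the fold. Median depth in the class was 8833 UMIs in ground and 16794 in running. Cluster 11 held 29.3% of the class in ground and 38.5% in running. In ground all members summed to 4407 CPM in cluster 11 and 2854 CPM in cluster 10. The part of depth and cluster make-up in the Ldha ratio was not tested. Pkm was lower in both larger clusters, at −0.95 in cluster 10 and −0.60 in cluster 11, where 4 (3.21%) and 3 (2.31%) members were lower. In cells with at least 1000 UMIs no member was lower (2.59%), and Pkm stood at −0.42. The median was 0.01 beside 0.04 for all genes.

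In B cell-like cells 1 member was lower (2.18% of all genes) and 2 were higher (3.52%). The lower gene was G6pdx, at 30.8 CPM in ground against 19.2 CPM in running (70 and 51 UMIs), a ratio of −0.69 (interval −1.24 to −0.15). When the cells were clustered without the members and neighbouring genes it stood at −0.54 and was not called. Slc16a3 stood at 8.37 CPM in ground against 22.2 CPM in running (19 and 59 UMIs), a ratio of 1.40, and Hk3 at 6.61 CPM in ground against 13.1 CPM in running (15 and 35 UMIs), a ratio of 0.99. Both have fewer than 100 UMIs and were singled out after their values were seen. The 13 mature neutrophil markers, all detected, summed to 1002 CPM in ground against 3027 CPM in running, and S100a8 to 3907 CPM in ground against 9624 CPM in running. With 1 doublet threshold for both libraries Slc16a3 stood at 0.22. Cluster 28, with 10 and 39 cells, had the most S100a8 of the B cell-like clusters. Without it Slc16a3 stood at −0.38 on 11 and 9 UMIs and Hk3 at −0.21 on 12 and 11 UMIs, both below the minimum, and no member was higher (1.87% of all genes), while G6pdx was lower at −0.87 (2.2%). The median of the class was 0.08 beside −0.05 for all genes.

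In B-cell precursor-like cells Slc16a3 was lower, at 11.2 CPM in ground against 5.37 CPM in running (30 and 24 UMIs; 4.3% of all genes), a ratio of −1.06 on fewer than 100 UMIs, singled out after its values were seen, and none was higher (1.89%). Gapdh stood at 769 CPM in ground against 1048 CPM in running, a ratio of 0.45 (interval 0.37 to 0.52), inside the fold. Within clusters 13 and 16 it stood at 0.30 and 0.01, and cluster 13 held 33.99% of the class in ground and 43.9% in running. Without the cell with most of its UMIs, Slc16a3 was not called. The median was 0.04 beside −0.07 for all genes. In T cell-like cells no member was lower (2.93%) or higher (2.27%), and the median was 0.01 beside −0.01. In macrophage-like cells, 59 and 191 in number with medians of 758 and 846 UMIs, Pgam1 was lower (4.39%) and none higher (6.36%), with 27 and 48 UMIs and a ratio of −1.13; it too was singled out after its values were seen, and without the cell with most of its UMIs the ratio was −0.30. Haemoglobin genes summed to 22279 CPM in ground against 639.9 CPM in running in that class and S100a8 to 21722 CPM in ground against 36579.7 CPM in running, and their part was not tested.

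Across the 9 compared classes, 14 members were called lower in at least 1 class, 3 higher in at least 1, 2 of them both, and 17 in none. Within a class, 1.08% to 4.39% of all genes were called lower. The share of all genes called in at least 1 class was not computed, so these counts have no background beside them. The 17 are Slc2a3, Slc16a1, Hk1, Hk2, Gpi1, Pfkm, Pfkfb3, Pfkfb4, Aldoc, Eno1, Ldhb, Pgls, Pgd, Rpia, Rpe, Tkt and Taldo1, so neither arm of the pentose phosphate pathway had a called gene other than G6pdx. Slc16a3, Pgam1 and Slc2a1 were each called lower in more than 1 class. At a 2-fold threshold 4 calls were left. Slc2a1 was lower in mature neutrophil-like cells (1.64% of all genes), Slc16a3 was lower in B-cell precursor-like (0.565%) and higher in B cell-like cells (1.65%), and Pgam1 was lower in macrophage-like cells (1.96%). No other member passed 2-fold on the lower side over all cells (0.539% of all genes), in B cell-like (0.324%), T cell-like (0.583%), erythroid-like (0.609%), granulocyte-monocyte progenitor-like (0.327%), immature neutrophil-like (0.364%) or monocyte-like cells (0.76%). None passed it on the higher side over all cells (2.48%), in B-cell precursor-like (0.484%), T cell-like (0.702%), erythroid-like (0.914%), granulocyte-monocyte progenitor-like (0.665%), immature neutrophil-like (1.05%), macrophage-like (3.72%), mature neutrophil-like (2.25%) or monocyte-like cells (1.18%). Gapdh, Pgam1, Eno1 and several others have near-identical copies or pseudogenes in the mouse genome, and reads shared between such copies make their counts uncertain.

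Of 55 neighbouring genes (pyruvate entry, glycogen, gluconeogenesis, glycerol phosphate, hypoxia regulators), mature neutrophil-like cells had 5 lower among 26 measured, at the same 4.12% of all genes. Hif1a, the oxygen-regulated subunit of hypoxia-inducible factor 1, stood at 194 CPM in ground against 77.8 CPM in running (2151 and 860 UMIs), a ratio of −1.32. Egln3, a prolyl hydroxylase that marks that subunit for breakdown, stood at 43.7 CPM in ground against 10.2 CPM in running, a ratio of −2.10. Pdk1, which inhibits pyruvate dehydrogenase, stood at −2.19, Egln1 at −0.68 and the phosphoglucomutase gene Pgm1 at −0.74. In immature neutrophil-like cells none was lower (1.08%) and 1 was higher (4.12%), the transporter gene Slc2a6 at 0.76. Over all cells 1 was lower (1.6%), Egln3 at −1.12, and 1 was higher (6.02%). In monocyte-like cells 2 were lower (2.49%), Hif1a at −0.63 and Egln3 at −0.80, and 1 was higher (3.18%), Eno3 at 0.70. In erythroid-like cells 4 were lower (2.94%), among them Egln1 at −0.60 and Hif1a at −0.61, and 1 was higher (4.11%), Myc at 0.75. Hif1a was low in that class, at 9.87 CPM in ground against 6.46 CPM in running. The part of neutrophil RNA in its ratio was not tested. In B cell-like cells 1 was lower (2.18%), Gpd2 at −0.67, and 1 was higher (3.52%), Pygl at 1.05. The part of cluster 28, with most S100a8 of the B cell-like clusters, in these ratios was not tested. In progenitor-like cells none was lower (1.3%) and 1 was higher (2.51%), Fbp1 at 0.72. By position, 8 of the 32 members lie on chromosome 6, 4 on chromosome 7 and 3 on chromosome 4. Gapdh and Tpi1 lie 347.694 kb apart on chromosome 6.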

How the data were processed

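Single-cell 3′ RNA libraries of bone marrow were measured, 1 labelled ground and 1 labelled running. The authors deposited raw UMI counts per gene and barcode, and per the file headers these came from Cell Ranger 5.0.0. The submitters' processing notes also list STAR and the build mm10. The matrices held 9162 barcodes and 85014860 UMIs in ground and 9473 and 79990530 in running.

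Barcodes under 500 UMIs, under 250 genes or over 10% mitochondrial UMIs were dropped, which took out 253 (2.76%) in ground and 293 (3.09%) in running. Scrublet, in scanpy 1.11.5, then removed 243 (2.73%) and 100 (1.09%) as doublets, at thresholds of 0.242 and 0.322. Both libraries were clustered together on 2000 variable genes, 2 of them members, with 30 principal components, 15 neighbours and Leiden resolution 1, giving 30 clusters. A cluster took the cell type with most markers among its 10 leading genes. These were ranked by fold with 10 CPM added, among genes detected in at least 25% of cells. Ties went to the count among the first 50 leading genes, and a name needed at least 3 detected markers. The T cell-like class also held natural killer cell markers, at 9171 CPM in ground against 11536 CPM in running.

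UMIs were summed per class and library. Shares have exact Clopper-Pearson intervals, and pentose phosphate ratios over all cells or within a cluster a normal approximation on the log scale. The members and lists were chosen with earlier results of these data known. Named in full are the 5 highest and 5 lowest members over all cells (at least 200 UMIs), every called member in mature neutrophil-like cells, at most 3 each way with at least 100 UMIs in other classes, the member with most UMIs of each step, isozyme families, and called neighbouring genes with at least 100 UMIs, at most 4 a class. Gene positions are RefSeq GRCm38.p6, matched by symbol for 32 of 32 members. The alternatives tried were the doublet threshold, the depth minimum, the clustering, the scale, the UMI minimum and the fold.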

Additional observations from a re-analysis of the deposited data

Results flagged for a closer look

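Slc16a3 and Hk3 lay on opposite sides of 0 in different classes, past the fold in both, each with 1 library per group, and the difference between the classes was not tested. The ratio of Slc16a3 was −1.06 in B-cell precursor-like cells (30 and 24 UMIs) and 1.40 in B cell-like cells (19 and 59 UMIs). For Hk3 the ratio was −0.64 in erythroid-like cells (79 and 56 UMIs) and 0.99 in B cell-like cells (15 and 35 UMIs). Without cluster 28, the B cell-like cluster with most S100a8, Slc16a3 stood at −0.38 in B cell-like cells on 11 and 9 UMIs, and Hk3 at −0.21 on 12 and 11 UMIs.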

How the results depend on the processing

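No paired analysis was possible because each group has 1 library, and for the same reason no replicate could be left out. Over the alternatives run, 104 medians kept within their spread and 4 moved more. For counts of called members these numbers were 187 and 49, for pentose phosphate against glycolysis 60 and 17 with 1 that turned, for summed steps of mature neutrophil-like cells 15 and 17, for isozyme shares 149 and 19, and for single members 193 and 50. The cause of each was not tested. A percentage after a count is the share of all genes tested that was called in that direction under the same alternative.

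With 1 doublet threshold for both libraries, 6 (3.45%) members were lower in mature neutrophil-like cells (10 in the main analysis) with a pentose phosphate ratio of 1.47 (1.58), 0 (1.02%) lower and 0 (3.22%) higher in immature neutrophil-like and 0 (2.31%) higher in B cell-like cells. In cells with at least 1000 UMIs the mature median was −0.25 (−0.36) and the ratio 1.51. The counts there were 1 (3.38%) higher in B cell-like, 0 (2.59%) lower in erythroid-like, 0 (1.23%) lower and 1 (2.55%) higher in progenitor-like and 2 (2.85%) lower in monocyte-like cells. Leiden resolution 2 gave 0 (1.16%) lower and 1 (2.82%) higher in progenitor-like and 1 (2.83%) lower in monocyte-like cells. Clustering without the members gave 0 (2.23%) lower in B cell-like cells.

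Averaging CPM over cells gave 3 (3.54%) lower over all cells, 2 (3.5%) in B-cell precursor-like, 5 (10.8%) in erythroid-like, 3 (6.61%) in progenitor-like and 3 (6.31%) in monocyte-like cells, and 2 (10.1%) higher in macrophage-like cells. The pentose phosphate ratio was then 1.33 over all cells (1.18), 1.70 in mature neutrophil-like and 1.08 in erythroid-like cells, the last turned from 0.96. The median of ratios as the scale put the median at −0.24 over all cells (−0.16) and −0.14 in immature neutrophil-like cells (−0.05). Over all cells, 2 (2.07%) members were lower relative to the all-gene median, 2 (1.74%) with ground class proportions and 0 (0.539%) at 2-fold.

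The 2-fold threshold left 1 (1.64%) lower in mature neutrophil-like cells, 0 (0.324%) lower and 1 (1.65%) higher in B cell-like, 0 (0.364%) and 0 (1.05%) in immature neutrophil-like, 0 (0.609%) lower in erythroid-like and 0 (0.327%) lower in progenitor-like cells. A minimum of 200 UMIs, which by construction drops members with few UMIs, left 0 (0.685%) lower and 0 (1.74%) higher in B cell-like, 0 (0.571%) and 0 (2.16%) in immature neutrophil-like, 1 (2%) lower in erythroid-like, and 0 (2.56%), 0 (0.476%) and 0 (3.56%) lower in B-cell precursor-like, progenitor-like and macrophage-like cells. No minimum gave 2 (3.66%) lower in macrophage-like cells. Without the cell with most UMIs of each member, macrophage-like cells had 0 (1.44%) lower and 4 (15.3%) higher, B-cell precursor-like cells 0 (3.97%) lower and B cell-like cells 1 (3.48%) higher.

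In mature neutrophil-like cells the cluster holding at least 20% of the class in each library had 4 (3.46%) lower and 1 (6.74%) higher and a ratio of 1.38. The alternatives added after the data were seen gave 5 (4.01%) lower and 1.48 without clusters mostly of 1 library. With the latest immature cluster counted as mature, the mature median was −0.23, the ratio 1.40 and the count 4 (2.97%) lower, and the immature class had 0 (0.93%) lower and 0 (3.39%) higher. Without Gapdh the mature ratio was 1.49. Without Taldo1 it was 1.31, and 1.11 over all cells. Without the cluster with most S100a8, 0 (1.87%) members were higher in B cell-like cells. The promoter search was not run, since no promoter sequences were used here. In shallow classes depth limits what can be called, since macrophage-like cells had 14 measured members.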
